A study of Mus musculus with 12 samples.

Results

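The aminoacyl-tRNA synthetases are the enzymes that load each amino acid onto its transfer RNA, and their genes were followed here in cultured mouse cells treated with 3 drugs. The genes were chosen by symbol: an amino acid letter followed by ars, alone or with the suffix 1 or 2, together with Farsa, Farsb, Fars2, Eprs, Ears2, Pars2 and Qars. The rule found 38 spots of 22393 on the array, which stand for 34 of its 16504 named genes. Of the 34, 19 encode cytosolic enzymes (22 spots) and 15 encode mitochondrial ones (16 spots). Aars2 and Dars meet the rule by name and were not analysed here.

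The 12 Agilent 2-colour arrays each set RNA of mouse cells given pioglitazone, telmisartan or irbesartan against RNA of cells given vehicle, with 4 arrays for each drug. Per the labels, each RNA was pooled from 3 independent cultures; cell type, genotype, dose and treatment time are not in the labels. Pioglitazone is a thiazolidinedione that activates PPAR-gamma, the nuclear receptor that drives fat cell genes. Telmisartan, a biphenyl carboxylic acid, and irbesartan, a biphenyl tetrazole, are angiotensin type 1 receptor blockers, a class whose members the study titles as activating PPAR-gamma. The question put by the arrays is which transcripts differ from vehicle with each drug.

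In animal cells most amino acids have 1 synthetase for the cytosol and a separate, nuclear-encoded one for the mitochondrion, marked by the suffix 2. Gars and Kars are exceptions: each gene gives both the cytosolic and the mitochondrial enzyme, and both are counted as cytosolic here. Some of the cytosolic enzymes are bound in 1 large complex on the scaffold proteins Aimp1, Aimp2 and Eef1e1, and the others work outside it. When amino acids are short or protein folding fails, uncharged transfer RNA and unfolded protein signal through eIF2-alpha kinases to the transcription factor Atf4, which binds amino acid response elements in genes of amino acid supply and of several cytosolic synthetases.

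Values are log2 ratios of drug over vehicle within an array. On arrays 1 and 3 of each drug the drug sample was in channel 1, and on arrays 2 and 4 it was in channel 2. The deposited ratios do not come with a stated numerator; the likely reading is channel 2 over channel 1, which puts 19 of 24 measured PPAR-gamma targets, and 13 of the 16 that changed at least 1.5-fold, above 0 with pioglitazone. Every "higher" and "lower" below rests on that reading, and all would turn together under the other. The targets below 0 were Lpl (-1.12), Adipoq (-0.95), Cidec (-0.73), Fabp4 (-0.34) and Slc27a1 (-0.28). Of these, Fabp4 and Lpl shared the ratio of the Lars2 spot on the pioglitazone channel 1 arrays, as given below. The target list was chosen with earlier results of these data known. The share of empty spots was 7.47% to 20.17% per array, and the ratios carry no signal level, so only the number of arrays measures precision. In correlations of the arrays as deposited, array pairs of a drug with opposite channel orders gave -0.302 to -0.732 for pioglitazone and telmisartan and -0.295 to -0.335 for irbesartan. Telmisartan array 2 had the lowest weight when arrays were weighted by their fit (0.228, against 0.646 to 1.63 for the others). Separate RNA pools on the 4 arrays of a drug, or a vehicle pool shared by the drugs, are not recorded; p-values then measure array-to-array spread alone, and this may be technical. In bulk RNA, fewer cells of a type and less RNA per cell cannot be told apart.

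Of the 34 genes, 32 were tested, having values on 3 or 4 arrays with every drug. All 19 cytosolic genes were among them and 13 of the 15 mitochondrial ones; Nars2 and Wars2, with 9 of 12 values each, were not. A gene was called higher or lower at an adjusted p under 0.05 in limma's test, adjusted over all 16354 features of the array. Changes were small: besides Lars2, Cars with pioglitazone was the only member called at 1.5-fold or more.

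With pioglitazone, 12 of the 19 cytosolic genes rose, 1 fell (Qars) and 6 were not called, and the median log2 ratio was 0.24. Over all features 23.7% were called higher and 26% lower with this drug, and the median was 0.005. With telmisartan, 12 of 19 rose and 1 fell, with a median of 0.18 against 0.006 over all features, of which 20.2% were called higher and 20.9% lower. With irbesartan, 13 of 19 rose and 1 fell, with a median of 0.185 against 0.004 over all features, of which 14.6% were called higher and 16.8% lower. Of the 13 mitochondrial genes, 5 rose and 3 fell with pioglitazone (median 0.011), and 2 rose and 3 fell with telmisartan (median 0.007). With irbesartan 5 rose and 1 fell (median 0.079), and the gene that fell was Lars2, whose spot is treated below. The calls of the mitochondrial genes in either direction, 8, 5 and 6 of 13, stand beside 49.8%, 41.1% and 31.3% of all features called in either direction. Without telmisartan array 2, 12 cytosolic and 6 mitochondrial genes were called with telmisartan, against 13 and 5 with it. Over the 12 fits that leave out 1 array, 5707 to 7156 features were called with telmisartan, against 6727 with all arrays. Without a term for channel order, 8 cytosolic genes rose with telmisartan and 8 with irbesartan, and on the channel 2 arrays of irbesartan alone 5 were called higher and 3 lower. Without the channel-order term 3270 of all 16354 features were called with irbesartan, against 5122 with it. The difference between the 2 compartments was not itself tested.

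**Figure D1:**
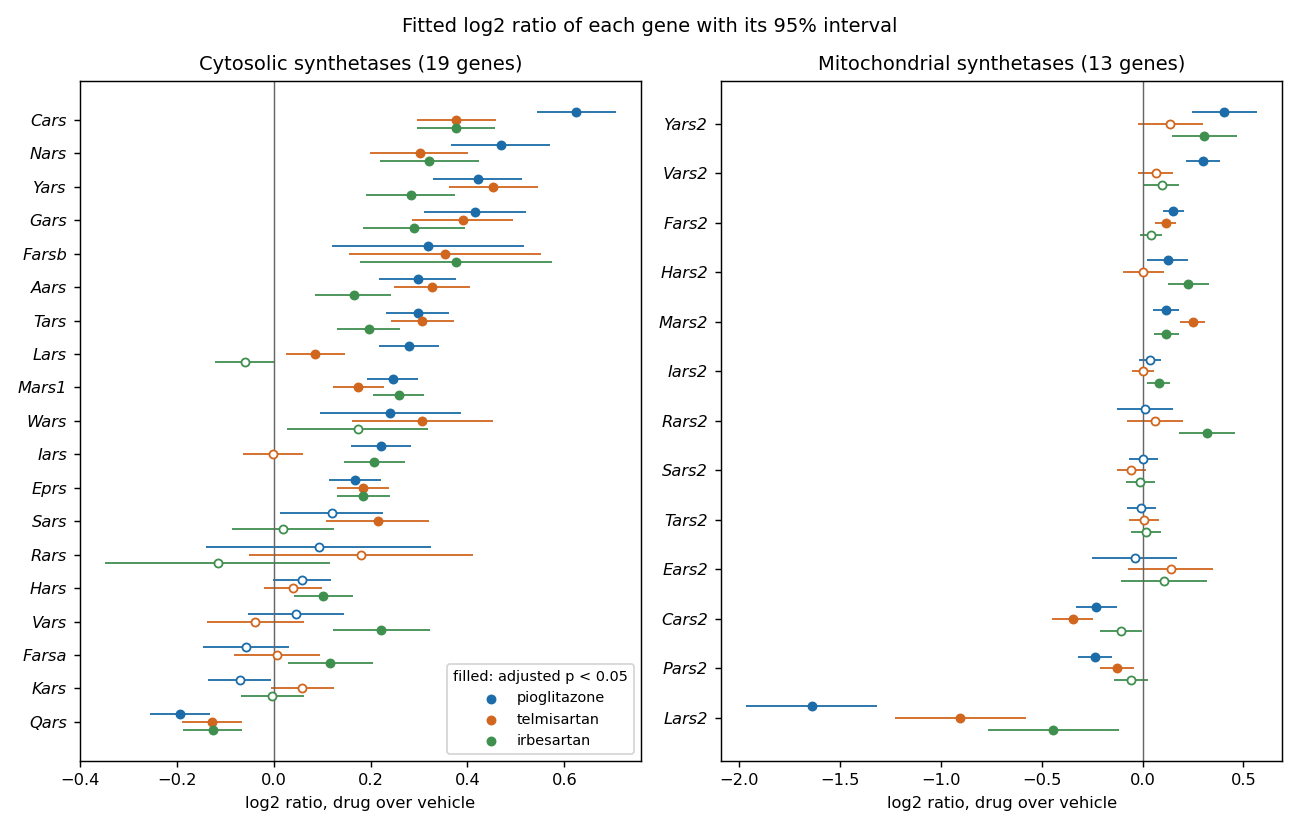
Fitted log2 ratio of drug over vehicle (horizontal axis) for the 19 cytosolic (left) and 13 mitochondrial (right) synthetase genes tested, ordered by their pioglitazone value. Points are estimates over 4 arrays per drug, lines their 95% intervals, filled points are called at an adjusted p under 0.05 and open points are not; most cytosolic points lie above 0, while the mitochondrial ones spread on both sides of it and Lars2 lies far below on a wider axis.

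Among the enzymes that work outside the large complex, 8 of 12 rose with pioglitazone, 9 with telmisartan and 10 with irbesartan, and none fell, beside 23.7%, 20.2% and 14.6% of all features called higher. This grouping was made after values were seen. Cars, which charges cysteine, had the largest pioglitazone value of all members. With pioglitazone its log2 ratios on arrays 1 to 4 were 0.57, 0.68, 0.54 and 0.70, giving 0.62 ± 0.037 (SE, adjusted p = 1.15e-07), a 1.54-fold rise. With telmisartan they were 0.37, 0.32, 0.39 and 0.43, giving 0.38 ± 0.037 (SE, adjusted p = 1.11e-05). With irbesartan they were 0.29, 0.52, 0.22 and 0.47, giving 0.38 ± 0.037 (SE, adjusted p = 1.43e-05). All 12 values lie above 0, and the lowest pioglitazone value exceeds the highest with either blocker.

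Nars, the asparagine enzyme, gave 0.60, 0.28, 0.62 and 0.37 with pioglitazone, 0.27, 0.26, 0.36 and 0.32 with telmisartan and 0.51, 0.09, 0.47 and 0.22 with irbesartan. It rose by 0.47 ± 0.046 (SE, adjusted p = 6.88e-06), by 0.30 ± 0.046 (SE, adjusted p = 0.000318) and by 0.32 ± 0.046 (SE, adjusted p = 0.000245) in that order of drugs. With pioglitazone and irbesartan the 2 arrays with the drug in channel 1 were the higher ones, and the 3 drugs' ranges overlap.

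Yars, the tyrosine enzyme, had the largest telmisartan value of the group. Its array values were 0.56, 0.30, 0.68 and 0.27 with telmisartan, 0.63, 0.27, 0.63 and 0.16 with pioglitazone and 0.42, 0.27, 0.33 and 0.12 with irbesartan. The fitted values were 0.45 ± 0.042 (SE, adjusted p = 7.01e-06), 0.42 ± 0.042 (SE, adjusted p = 7.25e-06) and 0.28 ± 0.042 (SE, adjusted p = 0.000294). Every array lies above 0, and for each drug the channel 1 arrays exceed the channel 2 arrays.

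Gars charges glycine in both compartments. Its array values were 0.32, 0.44, 0.51 and 0.39 with pioglitazone, 0.47, 0.20, 0.46 and 0.43 with telmisartan and 0.33, 0.33, 0.19 and 0.30 with irbesartan, and its fitted values 0.42 ± 0.047 (SE, adjusted p = 2.26e-05), 0.39 ± 0.047 (SE, adjusted p = 5.73e-05) and 0.29 ± 0.047 (SE, adjusted p = 0.000635). All 12 arrays are above 0; with telmisartan, array 2 lies apart below the other 3.

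Phenylalanine is charged by a cytosolic enzyme of 2 kinds of subunit. Farsb, the beta subunit, gave 0.57, 0.059, 0.48 and 0.16 with pioglitazone, 0.34, 0.50, 0.25 and 0.32 with telmisartan and 0.66, 0.11, 0.71 and 0.028 with irbesartan. It rose by 0.32 ± 0.089 (SE, adjusted p = 0.0119), 0.35 ± 0.089 (SE, adjusted p = 0.00843) and 0.38 ± 0.089 (SE, adjusted p = 0.00719). All 12 values are above 0, but with pioglitazone and irbesartan the channel 1 arrays carry most of the rise; without pioglitazone array 1 the value was 0.28 and the adjusted p 0.0589, and without irbesartan array 3 they were 0.31 and 0.0502. Weighting the arrays raised the telmisartan p to 0.0631. Farsa, the alpha subunit, was called only with irbesartan, at 0.12 ± 0.04, on array values of 0.34, -0.14, 0.34 and -0.076; the 2 channel orders have opposite signs. That call was lost in 8 of the 12 fits that leave out 1 array, whose adjusted p-values then ran from 0.0539 to 0.218. The difference between the 2 subunits was not tested.

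Aars, the alanine enzyme, rose by 0.30 ± 0.036 (SE, adjusted p = 3.41e-05) with pioglitazone, 0.33 ± 0.036 (SE, adjusted p = 2.56e-05) with telmisartan and 0.17 ± 0.036 (SE, adjusted p = 0.00408) with irbesartan, on telmisartan array values of 0.50, 0.20, 0.48 and 0.14. Tars, the threonine enzyme, rose by 0.30 ± 0.029 (SE, adjusted p = 7.58e-06), 0.31 ± 0.029 (SE, adjusted p = 9.89e-06) and 0.20 ± 0.029 (SE, adjusted p = 0.000353), and its 12 array values run from 0.072 to 0.43. For both genes every array is above 0.

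Wars, the tryptophan enzyme, was called higher with pioglitazone (0.24 ± 0.066) and telmisartan (0.31 ± 0.066) and had 0.17 ± 0.066 with irbesartan, an adjusted p of 0.0719. Its pioglitazone arrays read 0.21, -0.044, 0.73 and 0.063, so 1 array holds most of the value; without it the irbesartan p was 0.00878, and without pioglitazone array 1 it was 0.0303, because the drugs share 1 spread. Sars, the serine enzyme, was called with telmisartan (0.22 ± 0.048) and not with pioglitazone (0.12 ± 0.048 (SE, adjusted p = 0.0578)). The pioglitazone value was called without irbesartan array 1 or 2 (adjusted p 0.038 and 0.0478), with array weights (0.0282), with a dye term per drug (0.00258), with dye-swap pairs averaged (0.00784), in a separate fit (0.0169) and on the channel 1 arrays alone (0.26, 0.00249). With irbesartan its arrays read 0.32, -0.26, 0.25 and -0.24, with opposite signs in the 2 orders. Vars, the valine enzyme, was called with irbesartan (0.22 ± 0.045 (SE, adjusted p = 0.00268)), where its arrays read 0.30, 0.073, 0.42 and 0.091. Hars, the histidine enzyme, was called with irbesartan at 0.10 ± 0.027. Its irbesartan arrays read 0.243, -0.042, 0.242 and -0.033, with opposite signs in the 2 orders. Its adjusted p was 0.0577, 0.0568 and 0.0501 without irbesartan array 1, 3 and 4, and 0.443 without the dye term.

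**Figure D2:**
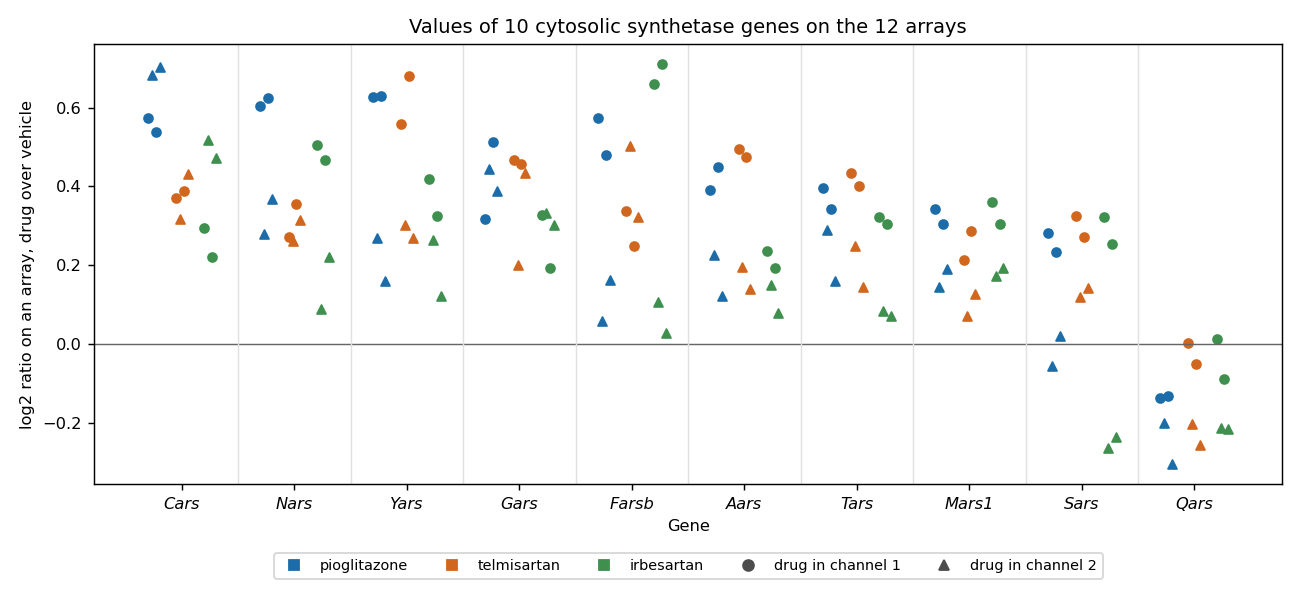
Log2 ratio of drug over vehicle on each array (vertical axis) for 10 cytosolic synthetase genes, 4 arrays per drug in colour, with circles where the drug was in channel 1 and triangles where it was in channel 2. For Cars, Yars, Gars, Farsb, Nars, Aars, Tars and Mars1 all 12 points lie above 0; the circles often lie above the triangles of the same drug, and the Sars irbesartan points fall on both sides of 0.

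Of the 7 measured enzymes of the large complex, 4 rose and 1 fell with pioglitazone, and 3 rose and 1 fell with each blocker, beside the same shares of all features called higher (23.7%, 20.2% and 14.6%) and 26%, 20.9% and 16.8% called lower. Mars1, the cytosolic methionine enzyme, rose by 0.25 ± 0.024 (SE, adjusted p = 6.01e-06), 0.18 ± 0.024 (SE, adjusted p = 0.000134) and 0.26 ± 0.024 (SE, adjusted p = 9.06e-06), with every array above 0. Qars, the glutamine enzyme, was the member that fell. Its arrays read -0.14, -0.20, -0.13 and -0.31 with pioglitazone, 0.003, -0.20, -0.05 and -0.26 with telmisartan and 0.012, -0.21, -0.088 and -0.22 with irbesartan. The fitted values were -0.19 ± 0.028 (SE, adjusted p = 0.000148), -0.13 ± 0.028 (SE, adjusted p = 0.00383) and -0.13 ± 0.028 (SE, adjusted p = 0.00475). With both blockers the channel 2 arrays are the lower ones, and without the dye term the calls with both blockers were lost. Kars, the lysine enzyme, and Rars, the arginine enzyme, were called with no drug, and their fitted values run from -0.07 to 0.059 and from -0.12 to 0.18. Without pioglitazone array 1 the Kars value with that drug was -0.10 (adjusted p = 0.0228), and without telmisartan array 2 it was -0.070 (0.0482). Irbesartan array 3 of Rars (-0.56) lies below the other 3 (-0.15 to 0.23); without that array the telmisartan value of 0.18 had an adjusted p of 0.0123, since the spread is shared.

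Eprs, Iars and Lars, which charge glutamate and proline, isoleucine and leucine, each had a pair of spots, and the averages above hide that the spots disagree. The first Lars spot read 0.44, 0.37, 0.44 and 0.39 with telmisartan and the second -0.10, -0.32, -0.12 and -0.41, so the 2 spots do not overlap. Tested alone, the first spot was higher with pioglitazone (0.38 ± 0.025), telmisartan (0.41 ± 0.025) and irbesartan (0.27 ± 0.025). The second was higher with pioglitazone (0.18 ± 0.043) but lower with telmisartan (-0.24 ± 0.043) and irbesartan (-0.39 ± 0.043). Averaged, Lars was called higher with pioglitazone (0.28 ± 0.028) and telmisartan (0.086 ± 0.028), the latter not without telmisartan array 1, 2, 3 or 4 (adjusted p 0.0679, 0.0837, 0.0584 and 0.0715).

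One Iars spot was higher with each drug, at 0.39 ± 0.035, 0.24 ± 0.035 and 0.30 ± 0.035. The other was lower with telmisartan (-0.24 ± 0.053, adjusted p = 0.00392) and had 0.057 and 0.12 with pioglitazone and irbesartan, which were not called. Averaged, Iars rose by 0.22 ± 0.028 with pioglitazone and 0.21 ± 0.028 with irbesartan. Eprs rose with each drug on average (0.17 ± 0.025, 0.18 ± 0.025 and 0.19 ± 0.025), but 1 spot held most of it, with 0.30 ± 0.023, 0.36 ± 0.023 and 0.24 ± 0.023 against 0.04 ± 0.03, 0.012 ± 0.03 and 0.13 ± 0.03. The channel 1 arrays also carried most of the averaged Eprs rise. Their means were 0.294 with pioglitazone, 0.323 with telmisartan and 0.35 with irbesartan, against 0.042, 0.046 and 0.02 on the channel 2 arrays. Without the dye term the averaged Eprs call was lost with each drug (limma adjusted p 0.118, 0.106 and 0.136). The probe sequences are not in the sources used here, so which transcript form each spot measures is not known.

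**Figure D3:**
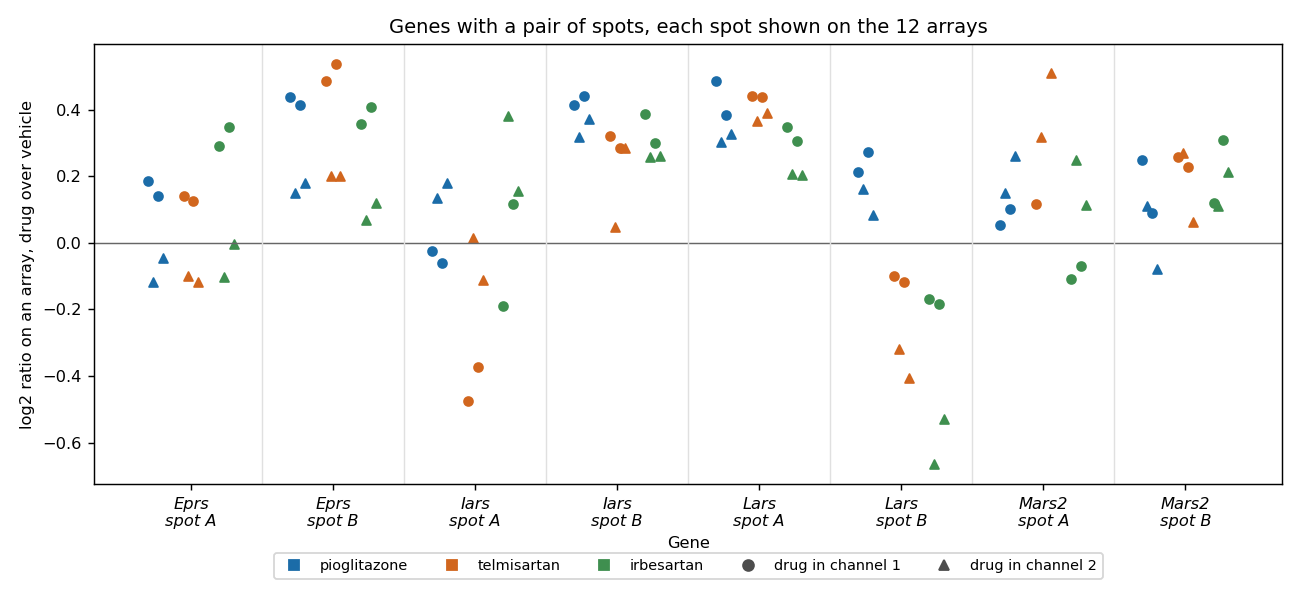
Log2 ratio of drug over vehicle on each array (vertical axis) for both spots of Eprs, Iars, Lars and Mars2, 4 arrays per drug, circles for the drug in channel 1 and triangles for channel 2. For Lars, all 12 points of spot A are above 0, while all 8 telmisartan and irbesartan points of spot B are below 0.

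Promoter sequence was at hand for 25 of the 34 genes (RefSeq, GRCm38.p6, 250 bases before to 50 after the start of the gene). The amino acid response element, written TGATGNAA, was searched on both strands. It was found in promoters of 5 of 12 cytosolic genes (Aars, Gars, Iars, Tars and Yars) and of 0 of 13 mitochondrial ones. Promoters of 4.51% of all 27025 genes hold it (3.97% of the 32851 promoters of that length), as do those of 10 of 35 genes of the amino acid supply and Atf4 list. Aars, Gars, Tars and Yars rose with all 3 drugs, and 1 of the 2 Iars spots did. Eprs, Farsb and Mars1 were also called higher with all 3 drugs and had no match. Without the dye term the Eprs calls were lost, as was the Aars call with irbesartan. The stretches below are all the matches found among the synthetase genes. Each is written 5′ to 3′ on the strand of its gene, with the match in capitals; TTGCATCA and TTTCATCA are the element read on the opposite strand.
Aars, chr8:111033700-111033767: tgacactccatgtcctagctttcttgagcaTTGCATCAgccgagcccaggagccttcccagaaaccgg
Aars, second match, chr8:111033821-111033861: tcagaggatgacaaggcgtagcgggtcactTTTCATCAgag
Gars, chr6:55037941-55038008: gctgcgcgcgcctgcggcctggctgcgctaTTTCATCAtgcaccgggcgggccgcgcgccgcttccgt
Iars, chr13:49682107-49682149: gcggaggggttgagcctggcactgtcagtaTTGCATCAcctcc
Tars, chr15:11399639-11399703: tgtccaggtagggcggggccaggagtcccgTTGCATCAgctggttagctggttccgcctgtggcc
Yars, chr4:129189876-129189922: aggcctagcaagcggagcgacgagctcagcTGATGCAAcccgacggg
The matches in Gars, Tars and the first one in Aars begin 30, 15 and 112 bases before the start, and those in Yars, Iars and the second in Aars 3, 7 and 9 bases after it. The narrower TGATGCAA, which TGATGNAA contains, was in 4 of the 12 cytosolic genes and 1.03% of all genes, and TGATGCAAT in 2 and 0.222%. The other motifs searched on both strands were CACGTG, in 4 cytosolic and 1 mitochondrial promoter (7.15% of all), TGACGTCA, in none of either (1.79% of all), and CCAAT, in 7 and 6 (37.4% of all). Cars, Hars, Hars2, Lars, Nars, Pars2, Rars, Vars and Wars were not searched. A match is a description of the letters and not of binding.

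The mitochondrial enzymes divided into genes that rose, genes that fell and genes near 0. Yars2, the tyrosine enzyme, read 0.44, 0.41, 0.40 and 0.38 with pioglitazone and 0.27, 0.28, 0.29 and 0.39 with irbesartan. It rose by 0.41 ± 0.073 (SE, adjusted p = 0.000737) and 0.31 ± 0.073 (SE, adjusted p = 0.00733); without irbesartan array 4 the latter was 0.25 with an adjusted p of 0.052. With telmisartan it read 0.34, -0.27, 0.28 and 0.20 and was not called (0.14 ± 0.073 (SE, adjusted p = 0.16)), but without array 2, the only value below 0, it was 0.27 with an adjusted p of 0.000159.

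Vars2, the valine enzyme, read 0.29, 0.29, 0.23 and 0.39 with pioglitazone and rose by 0.30 ± 0.039 (SE, adjusted p = 6.5e-05). Its values with telmisartan (0.065 ± 0.039) and irbesartan (0.094 ± 0.039) were not called. The irbesartan value of Vars2 was called with arrays scaled (0.119, adjusted p = 0.0334) and with a dye term per drug (0.0345). It was also called in a separate fit (0.042) and on the channel 1 arrays alone (0.178, 0.0269). Fars2, the phenylalanine enzyme, rose by 0.15 ± 0.024 (SE, adjusted p = 0.000302) with pioglitazone and 0.12 ± 0.024 (SE, adjusted p = 0.0028) with telmisartan. Rars2, the arginine enzyme, was called with irbesartan, where its arrays read 0.52, 0.21, 0.42 and 0.13 and it rose by 0.32 ± 0.063 (SE, adjusted p = 0.00221); with the other drugs it had 0.011 ± 0.063 and 0.063 ± 0.063.

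Mars2, the methionine enzyme, rose by 0.12 ± 0.028 (SE, adjusted p = 0.0054), 0.25 ± 0.028 (SE, adjusted p = 3.6e-05) and 0.12 ± 0.028 (SE, adjusted p = 0.00801), over a pair of spots of which 1 lacked a value on telmisartan array 3. Tested alone, both spots were called with telmisartan, but with pioglitazone they gave 0.14 ± 0.042 (adjusted p = 0.0174) and 0.092 ± 0.048 (0.139), and with irbesartan 0.047 ± 0.042 (0.483) and 0.19 ± 0.048 (0.0109). Averaged over the spots, its telmisartan arrays, 0.19, 0.30, 0.23 and 0.29, lie above all pioglitazone and irbesartan arrays. Within each spot the ranges overlap. Neither spot was called for telmisartan against pioglitazone (adjusted p 0.207 and 0.321) or against irbesartan (0.0533 and 0.913). Hars2, the histidine enzyme, rose by 0.23 ± 0.046 (SE, adjusted p = 0.00278) with irbesartan. Its pioglitazone call (0.13 ± 0.046 (SE, adjusted p = 0.0432)) was lost in 6 of the 12 fits that leave out 1 array, and without pioglitazone array 1 the value was 0.077 with an adjusted p of 0.233. Iars2 was called with irbesartan at 0.079 ± 0.025, and lost the call without irbesartan array 1, 2, 3 or 4 (adjusted p 0.107, 0.0518, 0.0848 and 0.158). Sars2, Tars2 and Ears2 were called with no drug.

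Cars2, the cysteine enzyme of the mitochondrion, fell with pioglitazone and telmisartan, where the cytosolic Cars rose. It read -0.11, -0.34, -0.14 and -0.33 with pioglitazone and -0.43, -0.39, -0.22 and -0.35 with telmisartan, all below 0, and fell by 0.23 ± 0.046 (SE, adjusted p = 0.00166) and 0.35 ± 0.046 (SE, adjusted p = 0.000118). With irbesartan it read 0.059, -0.32, 0.081 and -0.25, with opposite signs in the 2 channel orders, and was not called (-0.11 ± 0.046 (SE, adjusted p = 0.11)). It was called without telmisartan array 1 (adjusted p = 0.0287), with array weights (0.0375), with a dye term per drug (0.0327), in a separate fit (0.0207) and on the channel 2 arrays alone (-0.285, 0.00502). Pars2, the proline enzyme, fell by 0.23 ± 0.038 (SE, adjusted p = 0.00036) with pioglitazone, with all 4 arrays below 0, and by 0.13 ± 0.038 (SE, adjusted p = 0.019) with telmisartan. Without telmisartan array 1 or 3 the latter had an adjusted p of 0.115 or 0.0546.

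**Figure D4:**
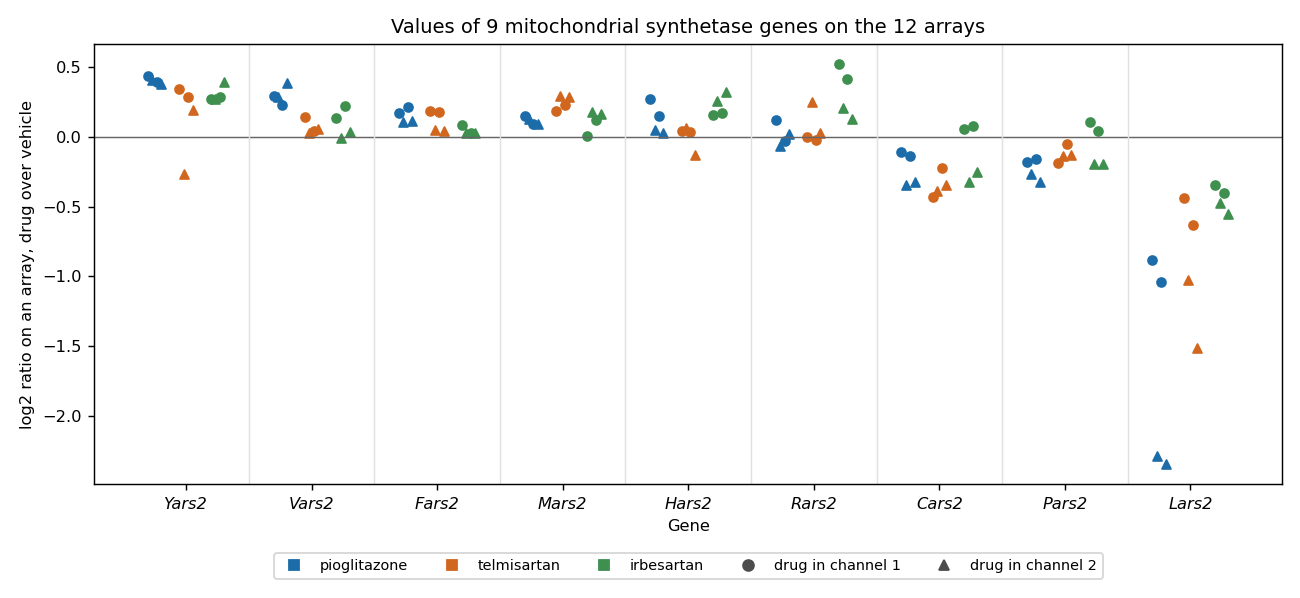
Log2 ratio of drug over vehicle on each array (vertical axis) for 9 mitochondrial synthetase genes, 4 arrays per drug in colour, with circles where the drug was in channel 1 and triangles where it was in channel 2. Yars2 has 1 telmisartan point below 0 (-0.27), the Cars2 and Pars2 points with pioglitazone and telmisartan are below 0, and for Lars2 the triangles reach -2.35 with pioglitazone while the circles go no lower than -1.04.

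Lars2, which charges mitochondrial leucine, had the largest change of any member, but its spot gave the ratio of unrelated genes on some arrays. With pioglitazone it read -0.88, -2.29, -1.04 and -2.35, with telmisartan -0.44, -1.02, -0.63 and -1.52 and with irbesartan -0.34, -0.47, -0.40 and -0.55. All 12 values are below 0, and with pioglitazone and telmisartan the channel 2 arrays are much lower than the channel 1 arrays. On both channel 1 arrays of pioglitazone the value lies within 5e-05 (log10) of that of Fabp4, a fatty acid carrier of fat cells. The same holds within 0.00011 for telmisartan and 6e-05 for irbesartan. On the pioglitazone channel 1 arrays Lpl, COX2 and Pigt also lie within 0.0015 (log10) of it, and on the irbesartan ones Lpl, Aldoa and Cidec. On both irbesartan channel 2 arrays 5 spots lie within that distance, 3 of them named (Aldoa, Pigt and Adamts15), and Fabp4 is not among them. On the same arrays other members had from 0 (Cars) to 26 (Fars2) such spots, so that count is not particular to Lars2. Of the other members, 0 share the Fabp4 ratio on both arrays of an order. The fitted Lars2 values were -1.64 ± 0.147 (SE, adjusted p = 3.32e-06), -0.90 ± 0.147 (SE, adjusted p = 0.000498) and -0.44 ± 0.147 (SE, adjusted p = 0.0409), and they rest partly on arrays with a shared ratio. On the channel 2 arrays of pioglitazone and of telmisartan, the lower ones of each drug, 0 spots shared the Lars2 ratio on both arrays. The irbesartan call was lost without irbesartan array 1 (-0.34, adjusted p = 0.194) or 3 (-0.32, 0.209), and without telmisartan array 1 (0.0527) or 3 (0.0535). Without Lars2, 5 of 12 mitochondrial genes rose and 2 fell with pioglitazone, 2 rose and 2 fell with telmisartan, and 5 rose and 0 fell with irbesartan. The shares of all features called higher were 23.7%, 20.2% and 14.6%, and those called lower 26%, 20.9% and 16.8%.

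The cytosolic values differed with the order of the channels. Their channel 1 arrays exceeded their channel 2 arrays by a median of 0.246 with pioglitazone, 0.156 with telmisartan and 0.236 with irbesartan. Over all features with 4 values these medians were 0.013, -0.004 and 0.004, and over the mitochondrial genes 0.068, 0.042 and 0.028. Each order still had its own median above 0: 0.324 and 0.11 with pioglitazone, 0.293 and 0.128 with telmisartan, 0.288 and 0.068 with irbesartan, channel 1 first. The 2 orders had opposite signs for 6, 4 and 6 of the 19 cytosolic genes, against 31.7%, 38.9% and 47.5% of all features. Whether labelling or dye chemistry takes part in the cytosolic values was not tested.

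**Figure D5:**
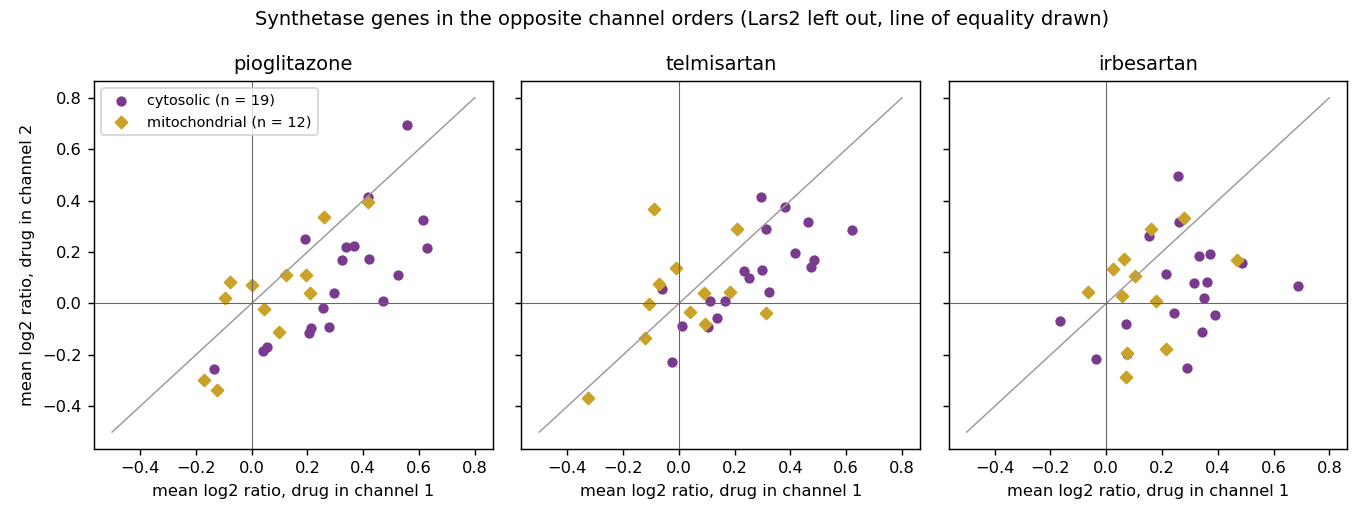
Mean log2 ratio of the 2 arrays with the drug in channel 1 (horizontal axis) against that of the 2 arrays with the drug in channel 2 (vertical axis) for each synthetase gene tested except Lars2, 1 panel per drug. Most cytosolic points (circles) lie to the right of 0 and below the line of equality, so the rise is larger in the channel 1 arrays; mitochondrial points (diamonds) lie on both sides of the line.

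Differences between drugs were tested for the same 32 genes in each of 3 pairs, as contrasts of the same fit. Doses and times are not in the labels, so the contrasts compare the samples as labelled and not matched exposures. Between pioglitazone and telmisartan, 4 members were higher with pioglitazone and 2 lower, beside 6.07% and 8.83% of all features (14.9% in either direction). Cars was higher with pioglitazone by 0.25 (95% interval 0.13 to 0.36, adjusted p = 0.00906), and its array ranges do not overlap, but the call was lost with arrays scaled (0.198, adjusted p = 0.0757) and without the dye term (0.0736). Iars was higher by 0.22 (95% interval 0.13 to 0.31, adjusted p = 0.0038), Vars2 by 0.23 (95% interval 0.11 to 0.36, adjusted p = 0.0162) and Lars by 0.19 (95% interval 0.11 to 0.28, adjusted p = 0.00743). The Lars difference belongs to 1 spot: tested alone, the spots gave 0.42 (adjusted p = 0.00114) and -0.033 (0.603). For Iars they gave 0.29 (0.0231) and 0.15 (0.0702). Lars2 was lower by 0.74 (95% interval of the difference -1.20 to -0.28, adjusted p = 0.0369), and Mars2 by 0.13 (95% interval of the difference -0.22 to -0.044, adjusted p = 0.0496). Leaving out 1 array at a time ended the Mars2 call in 10 of 12 fits (adjusted p up to 0.142) and the Lars2 call in 5 (up to 0.112). For genes without a call the intervals bound the difference: Yars had -0.032 (95% interval -0.16 to 0.098, adjusted p = 0.782), Gars 0.026 (95% interval -0.12 to 0.17, adjusted p = 0.853) and Tars -0.01 (95% interval -0.10 to 0.082, adjusted p = 0.91). Kars, at -0.13 (95% interval -0.22 to -0.037, adjusted p = 0.0631), was called without pioglitazone array 1 (-0.16, adjusted p = 0.0312).

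Between pioglitazone and irbesartan, 4 members were higher with pioglitazone and 3 lower, beside 7.68% and 10.6% of all features (18.2% in either direction). Lars was higher by 0.34 (95% interval 0.25 to 0.43, adjusted p = 0.000214), of which 1 spot gave 0.57 (adjusted p = 0.000144) and the other 0.11 (0.0551). Cars was higher by 0.25 (95% interval 0.13 to 0.36, adjusted p = 0.00773), Vars2 by 0.20 (95% interval 0.083 to 0.33, adjusted p = 0.0258) and Fars2 by 0.11 (95% interval 0.035 to 0.19, adjusted p = 0.0471). Lars2 was lower by 1.20 (95% interval of the difference -1.66 to -0.74, adjusted p = 0.00276), Rars2 by 0.31 (95% interval of the difference -0.50 to -0.11, adjusted p = 0.0349) and Pars2 by 0.18 (95% interval of the difference -0.30 to -0.056, adjusted p = 0.0456). The Cars, Lars and Lars2 calls held without any 1 array. With arrays scaled, however, the Cars difference was 0.128 (adjusted p = 0.244), and without the dye term the Cars and Lars2 calls were lost (0.0637 and 0.0553). Those of Fars2, Pars2, Rars2 and Vars2 were lost in 11, 7, 6 and 5 of the 12 fits that leave out 1 array, with adjusted p-values up to 0.132, 0.131, 0.103 and 0.0779. Calls appeared for Farsa, Yars and Aars without irbesartan array 2 (-0.22, 0.19 and 0.17, adjusted p 0.0267, 0.0424 and, just under the threshold, 0.05), for Farsa also without telmisartan array 4 (-0.17, 0.0478), and for Vars without pioglitazone array 1 (-0.22, 0.0394).

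The 2 blockers, which differ in the acid and tetrazole groups named above among other parts of the molecule, gave 1 member higher and 3 lower with telmisartan, beside 4.87% and 4.41% of all features (9.28% in either direction). Iars was lower with telmisartan by 0.21 (95% interval of the difference -0.30 to -0.12, adjusted p = 0.00957), and its array ranges do not overlap; its 2 spots gave -0.35 (adjusted p = 0.015) and -0.066 (0.47). Vars was lower by 0.26 (95% interval of the difference -0.40 to -0.12, adjusted p = 0.0291) and Cars2 by 0.24 (95% interval of the difference -0.38 to -0.094, adjusted p = 0.0457). Lars was higher by 0.15 (95% interval 0.06 to 0.23, adjusted p = 0.042). Leaving out 1 array at a time ended the Lars, Cars2 and Vars calls in 11, 9 and 6 of 12 fits, with adjusted p-values up to 0.112, 0.121 and 0.0832. Without a call, the difference between the blockers was 0.001 (95% interval -0.11 to 0.12, adjusted p = 0.997) for Cars, -0.02 (95% interval -0.16 to 0.12, adjusted p = 0.886) for Nars and -0.26 (95% interval -0.45 to -0.06, adjusted p = 0.101) for Rars2; without telmisartan array 2 the Rars2 value was -0.34 with an adjusted p of 0.0177. Hars2 was called at -0.25 (0.0424) without the same array and at -0.22 (0.0489) without pioglitazone array 1, and Aars and Yars at 0.20 (0.0465) and 0.22 (0.0407) without irbesartan array 2.

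Of the 3 scaffold genes of the large complex, 2 rose with each drug. Over all features 23.7% were called higher with pioglitazone, 20.2% with telmisartan and 14.6% with irbesartan. Eef1e1 rose by 0.60 ± 0.036, 0.49 ± 0.036 and 0.41 ± 0.036 with pioglitazone, telmisartan and irbesartan. Aimp2 rose by 0.28 ± 0.026, 0.20 ± 0.026 and 0.12 ± 0.026, while Aimp1 was not called with any drug (-0.028, 0.002 and -0.070).

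Of 36 measured genes of amino acid supply and the Atf4 pathway, 20 rose and 4 fell with pioglitazone, 20 rose and 2 fell with telmisartan, and 18 rose and 5 fell with irbesartan. Over all features 23.7% were called higher and 26% lower with pioglitazone, 20.2% and 20.9% with telmisartan, and 14.6% and 16.8% with irbesartan. The medians of the list were 0.15, 0.12 and 0.12. Asns, which makes asparagine, the amino acid that Nars loads, rose by 0.96 ± 0.027, 0.81 ± 0.027 and 0.65 ± 0.027. Mthfd2, a mitochondrial folate enzyme, rose by 0.90 ± 0.023, 0.73 ± 0.023 and 0.73 ± 0.023. Psph, the last enzyme of serine synthesis, rose by 0.89 ± 0.032, 0.69 ± 0.032 and 0.58 ± 0.032, and Got1, the cytosolic aspartate aminotransferase, by 0.81 ± 0.059, 0.91 ± 0.059 and 0.50 ± 0.059. Aldh18a1, which starts proline synthesis, rose by 0.73 ± 0.036, 0.66 ± 0.036 and 0.67 ± 0.036. Atf4 itself rose by 0.26 ± 0.049, 0.31 ± 0.049 and 0.50 ± 0.049. Ddit3, a stress-induced partner of that pathway, rose with pioglitazone (0.27 ± 0.049) and telmisartan (0.58 ± 0.049), and had 0.11 ± 0.049 with irbesartan. Trib3 was not analysed here.

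Genes of the steps next to charging were counted in the same way; the shares of all features called were again 23.7% higher and 26% lower with pioglitazone, 20.2% and 20.9% with telmisartan, and 14.6% and 16.8% with irbesartan, and no difference between lists was tested. Of 38 genes of tRNA processing, repair and editing, 15 rose and 9 fell with pioglitazone, 14 and 6 with telmisartan, and 13 and 4 with irbesartan. Trmt5, a tRNA methyltransferase, rose by 0.61 ± 0.039, 0.33 ± 0.039 and 0.44 ± 0.039, and Adat2, a subunit of the tRNA adenosine deaminase, by 0.48 ± 0.061, 0.56 ± 0.061 and 0.33 ± 0.061. Of 11 cytosolic elongation and termination factors, 1 rose and 3 fell with pioglitazone, 0 and 2 with telmisartan, and 0 and 1 with irbesartan; Eef2, which moves the ribosome along, had -0.48 ± 0.037, -0.32 ± 0.037 and -0.22 ± 0.037. Of 12 mitochondrial translation factors, 7 rose and 0 fell with pioglitazone, 5 and 1 with telmisartan, and 5 and 0 with irbesartan. Gfm1, a mitochondrial elongation factor, rose by 0.42 ± 0.051, 0.26 ± 0.051 and 0.32 ± 0.051, and Tufm, which brings charged tRNA to the mitochondrial ribosome, by 0.35 ± 0.027, 0.10 ± 0.027 and 0.22 ± 0.027.

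Markers of several cell types moved beside these genes. All 12 measured fibroblast markers fell with each drug, with medians of -1.17, -0.80 and -0.73. Over all features 26%, 20.9% and 16.8% were called lower with pioglitazone, telmisartan and irbesartan, and 23.7%, 20.2% and 14.6% higher. Of 9 fat cell markers 6, 4 and 4 fell and 1, 0 and 2 rose with pioglitazone, telmisartan and irbesartan. Among these, Fabp4 shared the ratio of the Lars2 spot on the channel 1 arrays of each drug. Lpl did so with pioglitazone and irbesartan, and Cidec with irbesartan, so the fat cell counts rest partly on such values. Of 5 macrophage markers 0, 1 and 0 rose and 0, 1 and 1 fell, and of 5 endothelial markers 1, 0 and 0 rose and none fell. Ratios hold no levels, so which of these markers are expressed is not known, and the part of such a shift in the synthetase values was not tested.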

How the data were processed

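The series holds 12 two-channel Agilent arrays, 4 for each drug against vehicle. The authors' deposited table was read as log10 ratios of the channels, a unit inferred from the values; background correction, normalisation and the numerator are not given in the sources used here. Values were turned to log2 ratios of drug over vehicle. The 471 control-like spots, none with a gene, were left out, repeat spots (48 sets) and spots of a gene were averaged, and 16354 features with values on at least 3 arrays of each drug were tested (13945 genes and 2409 unnamed). One limma 3.58.1 fit in R 4.3.3 held a coefficient per drug and a shared dye coefficient, with two-sided moderated tests, Benjamini-Hochberg adjustment within each comparison and a threshold of 0.05. ± is the standard error of that fit over 4 arrays per drug. The fit was tested on simulated data in which the dye effect of a feature was the same for all drugs. That test does not cover dye effects that differ between drugs.

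Symbols came from the platform annotation, updated through Entrez IDs: 18218 spots had 1 symbol, 16 several and 4159 none. The members, gene lists and promoter motifs were chosen with earlier results of these data known. All members found on the array are reported; the text gives full statistics for the 5 cytosolic and 3 mitochondrial genes with the largest changes per drug, the 5 largest differences per drug pair and Lars2, and up to 4 genes of each other list, with Atf4, Asns, Ddit3 and Trib3 by name. Other genes, Aimp1 and Aldh18a1 in all drugs, and the grouping by the synthetase complex, were added after values were seen. Array numbers shared by the drugs mark channel order, not samples: after removing channel order, same-numbered arrays correlated at -0.036 to 0.028, so they were not treated as pairs.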

Additional observations from a re-analysis of the deposited data

Results flagged for a closer look

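In groups of 4 arrays, 1 array stood apart from the other 3 by Dixon's criterion in 9 of 174 groups tested over 58 genes; chance alone gives about 1 in 20. Among the synthetases these were Fars2 on irbesartan array 1 (0.082, the others 0.025 to 0.03), Gars on telmisartan array 2 (0.20, the others 0.43 to 0.47), Hars2 on telmisartan array 4 (-0.13, the others 0.035 to 0.062), Rars2 on telmisartan array 2 (0.25, the others -0.021 to 0.025), Sars2 on telmisartan array 4 (0.11, the others -0.11 to -0.10) and Yars2 on irbesartan array 4 (0.39, the others 0.27 to 0.29). Among the other genes named they were Adat2 on irbesartan array 2 (0.56, the others 0.23 to 0.28), Clp1 on telmisartan array 2 (0.42, the others 0.14 to 0.18) and Eef1a1 on pioglitazone array 2 (-0.19, the others -0.47 to -0.44).

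A further 45 values are differences between drugs that passed limma's test of the difference itself at an adjusted p under 0.05, with the sign of the drug named first over the other. For pioglitazone over irbesartan, the log2 values and adjusted p-values of the synthetases were Lars 0.34 (0.000214), Cars 0.25 (0.00773), Vars2 0.20 (0.0258), Fars2 0.11 (0.0471), Pars2 -0.18 (0.0456), Rars2 -0.31 (0.0349) and Lars2 -1.20 (0.00276). Those of the neighbouring pathway genes were Asns 0.31 (0.00033), Psph 0.31 (0.00104), Got1 0.31 (0.0265), Atf4 -0.24 (0.0347), Mthfd2 0.17 (0.00514), Eif5a -0.46 (0.00183), Eef1a1 -0.34 (0.0292), Eef2 -0.26 (0.00721), Gfm2 0.16 (0.033), Tufm 0.12 (0.0429), Eef1e1 0.19 (0.0243), Aimp2 0.16 (0.0128), Prorsd1 0.28 (0.000994) and Dtd1 -0.19 (0.0148). For pioglitazone over telmisartan, the log2 values and adjusted p-values of the synthetases were Cars 0.25 (0.00906), Iars 0.22 (0.0038), Lars 0.19 (0.00743), Vars2 0.23 (0.0162), Mars2 -0.13 (0.0496) and Lars2 -0.74 (0.0369). Those of the neighbouring pathway genes were Ddit3 -0.31 (0.0121), Psph 0.20 (0.0139), Mthfd2 0.17 (0.00575), Asns 0.15 (0.0226), Eef1a1 -0.36 (0.0293), Tufm 0.24 (0.00155), Trmt5 0.27 (0.00667) and Trmt10c 0.23 (0.0405). For telmisartan over irbesartan, the log2 values and adjusted p-values of the synthetases were Lars 0.15 (0.042), Iars -0.21 (0.00957), Vars -0.26 (0.0291) and Cars2 -0.24 (0.0457). Those of the neighbouring pathway genes were Ddit3 0.47 (0.00296), Got1 0.41 (0.0135), Asns 0.16 (0.0274), Eif5a -0.36 (0.0147), Gatb -0.15 (0.0219) and Prorsd1 0.19 (0.0162).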

How the results depend on the processing

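Calls for drug over vehicle were steadier than differences between drugs. Of the calls made, 10 of 13 cytosolic and 6 of 8 mitochondrial ones with pioglitazone held under every other setting tried, leaving aside those chosen after seeing the data, 7 of 13 and 3 of 5 with telmisartan, and 7 of 14 and 3 of 6 with irbesartan; the causes of the losses were not tested. The unit of replication is the array, signal over background is unknown, and 4 arrays per drug limit precision.

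Without a dye term, 8 cytosolic genes were called with telmisartan and 8 with irbesartan, where 3270 features were called in all. For pioglitazone against irbesartan that fit called 993 features, 1 cytosolic and 0 mitochondrial genes, for pioglitazone against telmisartan 814, 1 and 1, and for telmisartan against irbesartan 234, 0 and 0. With a dye term per drug, 5 cytosolic genes were called in each difference, with 2423 features and 5 mitochondrial genes for telmisartan against irbesartan. With arrays scaled, pioglitazone against irbesartan gave 1569 features, 1 cytosolic and 2 mitochondrial genes, and pioglitazone against telmisartan 1541 features. With separate fits, telmisartan gave 3 mitochondrial genes, telmisartan against irbesartan 804 features and 0 mitochondrial genes, and pioglitazone against irbesartan 4 cytosolic genes, as did averaged dye-swap pairs. Array weights gave 1 mitochondrial gene for pioglitazone against telmisartan and 2 for telmisartan against irbesartan. Requiring values on at least 2 arrays gave 3 mitochondrial genes for pioglitazone against irbesartan and 0 for telmisartan against irbesartan.

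With the array number as a replicate block, telmisartan against irbesartan had 995 features, 1 cytosolic and 0 mitochondrial genes called, and 1 mitochondrial gene was called in each difference from pioglitazone.

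On the arrays with the drug in channel 1 alone, chosen after seeing the data, pioglitazone against irbesartan gave 4 cytosolic and 2 mitochondrial genes, pioglitazone against telmisartan 1391 features and 1 mitochondrial gene, and telmisartan against irbesartan 2 mitochondrial genes. On those with the drug in channel 2, also chosen after seeing the data, irbesartan gave 8 cytosolic genes (5 higher, 3 lower), pioglitazone against irbesartan 822 features, 1 and 2 genes, pioglitazone against telmisartan 660, 0 and 1, and telmisartan against irbesartan 15, 0 and 0. There the irbesartan values of Farsa (-0.11), Hars (-0.038), Sars (-0.25), Tars2 (-0.18) and Wars (-0.044) turned below 0. Taking the spot with the smallest p turned Iars with telmisartan to 0.235, Lars with irbesartan to 0.267 and Eprs between the blockers to 0.118.

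Leaving out each array in turn gave, for pioglitazone against irbesartan, 2106 to 3624 features, 2 to 5 cytosolic and 1 to 5 mitochondrial genes. For pioglitazone against telmisartan it gave 1704 to 2450 features, 3 to 4 cytosolic and 1 to 3 mitochondrial genes. For telmisartan against irbesartan it gave 937 to 1936 features, 1 to 3 cytosolic and 0 to 3 mitochondrial genes.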
